A study of Homo sapiens with 18 samples.

Results

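Of 20329 gene rows counted in HAP1 cells, 65 went from nearly unread to clearly read between genotypes with and without the cohesin regulators WAPL and SCC4. A gene was taken as switching when its mean level was below 0.5 CPM in one group of samples and at 5 CPM or more in another, where CPM is the count of the gene scaled to a total of 1000000 on all genes of the sample. The rule named 20 genes to be left out, 13 of which meet these limits, and 11105 rows reached 5 CPM in some group and could have passed. The 65 members were therefore 0.585% of the rows that could have passed. The members were chosen by their mean CPM in all 6 groups, so their levels and the counts of groups on or off are a description without a test. Tests are given only where a switch chosen in one pair of groups was read in samples of another pair.

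Cohesin is a ring-shaped complex that holds DNA together and extrudes it into loops. A loader made of SCC2 and SCC4, the latter encoded by MAU2, puts the ring on DNA, and WAPL takes it off again. Loops anchored at sites bound by the factor CTCF can bring enhancers and promoters together or keep them apart, and cohesin has been studied as a regulator of gene activity for that reason.

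HAP1 is an established human leukaemia-derived line with a nearly haploid genome, so that a single disrupted copy gives a knockout. The study asked what happens to chromosome loops and to transcription when cohesin stays on DNA too long, is loaded too little, or both. The 18 RNA-seq samples form a set A with 3 wild-type controls (control A), 3 samples of *ΔWAPL* clone 3.3, 3 of *ΔSCC4* and 3 of *ΔWAPL*/*ΔSCC4*, and a set B with 3 wild-type controls (control B) and 3 samples of *ΔWAPL* clone 1.14. The knockouts came from CRISPR cutting and insertion of a blasticidin cassette into WAPL or a puromycin cassette into SCC4, and the double knockout was made by knocking out SCC4 in cells already lacking WAPL. The study gives a single culture medium for HAP1 cells, and the sample titles name no treatment. Each knockout is a clonal line and *ΔSCC4* and the double knockout have 1 line each, so the genotype and the clone cannot be told apart there. No source says that replicates were separate cultures, and p-values then measure only the spread between these samples. No marker list for HAP1 was fixed, and the line was taken from the labels.

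The targeted genes were read first. MAU2 was at 0.968, 0.50 and 0.634 CPM in *ΔSCC4* and at 0.922, 1.06 and 0.853 CPM in the double knockout, against 51.8 to 71.4 CPM in the other samples. WAPL was lower but still read in all knockouts of WAPL, with means of 43.2 ± 4.74 CPM in clone 3.3, 45.9 ± 3.85 in the double knockout and 41.8 ± 3.09 in clone 1.14, against 97.4 ± 21.5 in control A, 121 ± 14 in control B and 85.1 ± 17.3 in *ΔSCC4* (SD, n = 3 each). Total counts on genes ranged from 10007646 to 20711127 per sample. A level of 0.5 CPM was thus 5.0 to 10.4 reads and 5 CPM was 50.04 to 103.6 reads, while a count of 0 allows up to 0.145 to 0.300 CPM (3 counts of the sample's total). These limits cover counting error only. In bulk RNA, fewer cells that express a gene and less RNA per cell cannot be told apart.

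The states of the members differed between groups as the members were chosen to do. Clone 1.14 had 33 members off (below 0.5 CPM), 24 on (5 CPM or more) and 8 between, which leaves it with the fewest intermediate levels. *ΔSCC4* had 26 off and 16 on, the double knockout 19 off and 24 on, and clone 3.3 16 off and 10 on. Control A had 13 members off and 23 on, and control B 4 off and 29 on. Clone 1.14 held the lowest or highest mean of 42 members, *ΔSCC4* and the double knockout of 25 each, and clone 3.3 of 11. In 34 members only 1 group was off, and in 29 only 1 group was on. In all 65 the 3 samples of the lowest group lay below the 3 samples of the highest, and in 41 every sample of the lowest group was under 0.5 CPM and every sample of the highest at 5 CPM or more. The rule chose the members by the means of these groups, so their separation follows largely from the choice. Nothing is read from it.

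**Figure D1:**
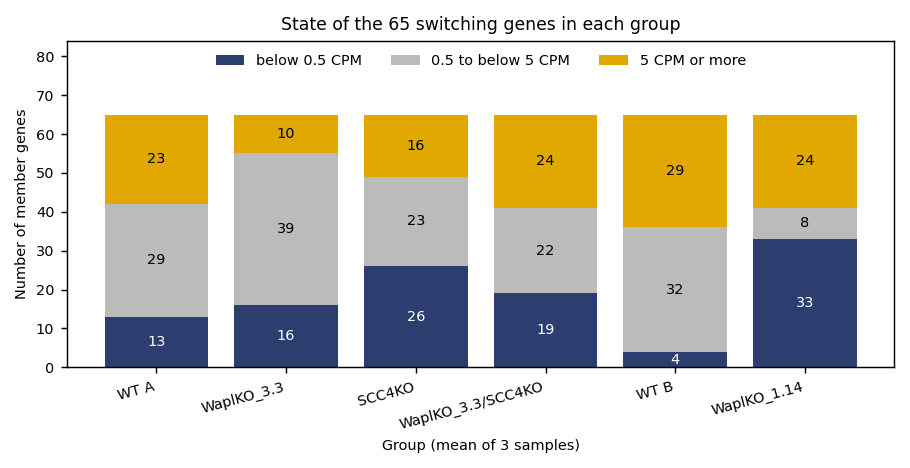
Stacked bars count the 65 members (vertical axis, number of genes) by their mean over 3 samples in each of the 6 groups (horizontal axis), split at 0.5 and 5 CPM. Clone 1.14 has 33 genes off and 8 between the limits, whereas clone 3.3 has 39 between them.

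No member switched between the wild-type controls of the sets, yet the controls were not alike. Samples of control B lay above all samples of control A in 26 members and below all of them in 8. Over all rows that could have passed, 12.2% were higher without overlap in this comparison and 5.84% lower. AMBN was at 14.3 ± 1.60 CPM in control A and 45.6 ± 1.88 in control B, TKTL1 at 3.89 ± 0.581 and 12.7 ± 1.74, and CD44 at 3.27 ± 0.679 and 9.73 ± 0.435 (SD, n = 3). Each clone was therefore tested only against the controls of its own set. The rule itself compares groups of both sets, and 15 members met it only between a group of set A and a group of set B.

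**Figure D2:**
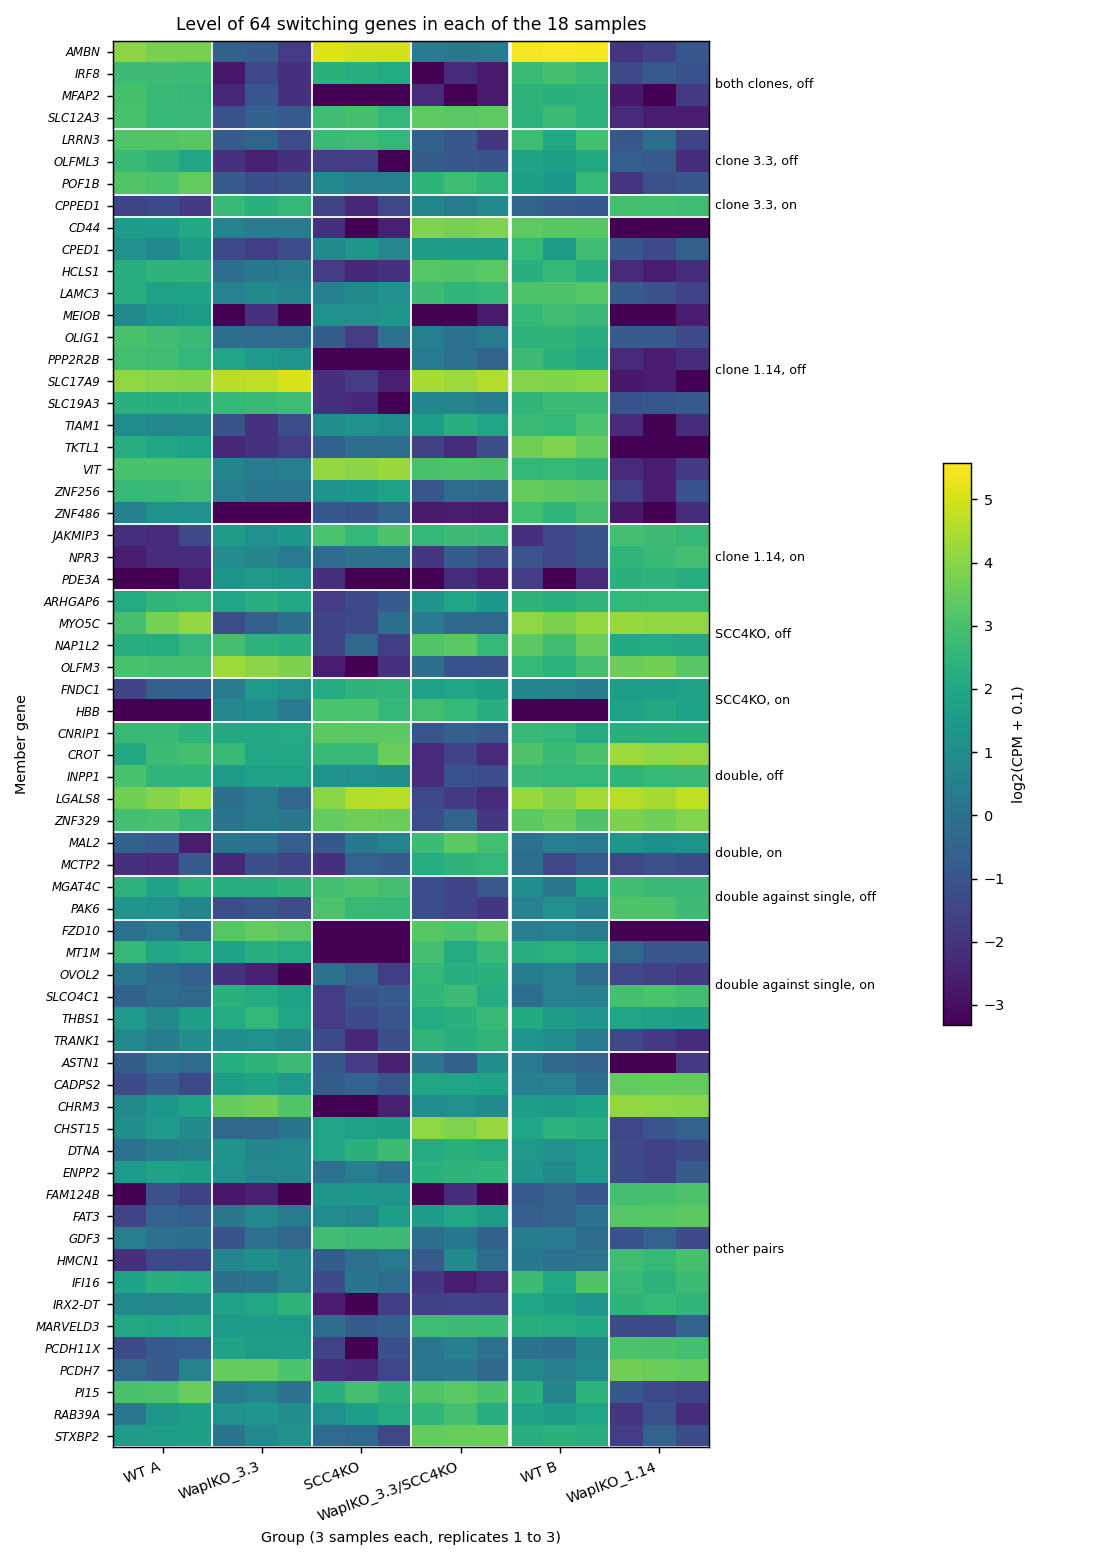
Each row is a member, 64 of the 65 being drawn, and each column a sample, 3 per group, with colour giving log2(CPM + 0.1). Rows are ordered by the pair of groups in which the switch was first met, and the columns of a group carry nearly the same colour, with dark blocks for groups near 0. Colours are not corrected for gene length and compare samples within a row.

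AMBN, SLC12A3, IRF8 and MFAP2 were the 4 members below 0.5 CPM in both *ΔWAPL* clones and at 5 CPM or more in the controls of both sets. They have unrelated known roles. AMBN encodes ameloblastin of the tooth enamel matrix, SLC12A3 the thiazide-sensitive sodium chloride cotransporter of the kidney, IRF8 a transcription factor of the blood lineages, and MFAP2 a glycoprotein of extracellular microfibrils. No member switched on in both clones by this rule.

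AMBN (ENSG00000178522, chr4:71457973-71473005 on GRCh37, plus strand) was at 16.2, 13.4 and 13.5 CPM in control A and at 0.579, 0.492 and 0.201 in clone 3.3. In set B it was at 44.2, 47.7 and 45.0 CPM in control B and at 0.161, 0.24 and 0.430 in clone 1.14. *ΔSCC4* samples held 36.2, 31.8 and 32.1 CPM, and the double knockout 1.27, 1.12 and 1.19. All 3 lines without WAPL were thus low, the *ΔSCC4* line was above control A, and none of these groups overlapped with its controls. IRF8 (ENSG00000140968, chr16:85932722-85956212, plus strand) was at 6.71, 6.74 and 6.64 CPM in control A, at 6.59, 7.84 and 6.43 in control B and at 5.16, 4.70 and 4.23 in *ΔSCC4*. It was at 0.0483, 0.281 and 0.134 CPM in clone 3.3, at 0.322, 0.479 and 0.369 in clone 1.14, and at 0, 0.124 and 0.0568 in the double knockout, where these last values are 0, 2 and 1 reads. As for AMBN, the samples without WAPL lay below all those with it.

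SLC12A3 (ENSG00000070915, chr16:56899119-56949762, plus strand) differed from these in the double knockout. It was at 8.05, 6.07 and 6.23 CPM in control A, at 0.386, 0.563 and 0.468 in clone 3.3, at 5.36, 6.55 and 5.30 in control B and at 0.107, 0.0599 and 0.0615 in clone 1.14. *ΔSCC4* held 7.16, 7.79 and 5.78 CPM and the double knockout 10.3, 9.75 and 10.2, so the line that lacks both proteins was above every other sample. MFAP2 (ENSG00000117122, chr1:17300997-17307127, minus strand) was off in all 4 knockouts. It was at 7.86, 6.37 and 5.94 CPM in control A and at 5.43, 5.12 and 5.30 in control B, with 1 read, 0 reads and 3 reads in clone 1.14, 2, 6 and 2 reads in clone 3.3, 2, 0 and 1 in the double knockout, and 0 in all 3 *ΔSCC4* samples. The other members off in all 4 knockouts were OLFML3 and ZNF486.

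Because these members moved together in the clones, the 250 bases before starts that RefSeq lists for 3 of them (GRCh38.p14, read on the gene's strand, 5′ to 3′) are shown, with CpG dinucleotides in capitals. MFAP2 has 2 listed starts 963 bases apart, with the stretches chr1:16981584-16981833 (outer) and chr1:16980621-16980870 (inner) on the minus strand. The AMBN stretch is chr4:70592006-70592255 and the SLC12A3 stretch chr16:56864957-56865206, both on the plus strand and before the outer start of the gene. The starts listed for IRF8 lie 3668 and 3853 bases inside the gene, so no stretch is shown for it.
MFAP2 outer: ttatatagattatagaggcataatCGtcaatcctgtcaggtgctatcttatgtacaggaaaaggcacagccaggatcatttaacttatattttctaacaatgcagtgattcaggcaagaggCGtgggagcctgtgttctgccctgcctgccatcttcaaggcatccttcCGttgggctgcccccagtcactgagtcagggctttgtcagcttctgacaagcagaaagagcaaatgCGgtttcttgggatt
MFAP2 inner: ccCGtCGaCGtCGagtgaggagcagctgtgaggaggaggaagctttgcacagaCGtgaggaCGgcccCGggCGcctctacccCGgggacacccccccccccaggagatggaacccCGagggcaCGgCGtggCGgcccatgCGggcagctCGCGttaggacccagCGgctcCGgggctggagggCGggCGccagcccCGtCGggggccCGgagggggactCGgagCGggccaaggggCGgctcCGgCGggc
AMBN: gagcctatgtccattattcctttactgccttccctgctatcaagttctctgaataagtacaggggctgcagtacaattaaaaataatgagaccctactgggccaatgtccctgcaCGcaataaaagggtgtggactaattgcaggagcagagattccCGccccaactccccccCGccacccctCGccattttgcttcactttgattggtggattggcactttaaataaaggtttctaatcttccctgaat
SLC12A3: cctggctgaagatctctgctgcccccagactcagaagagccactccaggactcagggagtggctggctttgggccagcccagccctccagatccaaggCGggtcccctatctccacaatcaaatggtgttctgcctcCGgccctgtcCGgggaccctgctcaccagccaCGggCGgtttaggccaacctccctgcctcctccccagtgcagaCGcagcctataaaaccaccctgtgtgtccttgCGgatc

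The stretches held 4 CpG dinucleotides at the outer and 28 at the inner MFAP2 start, 4 at AMBN and 7 at SLC12A3. With the 50 bases after the start included, the observed CpG count over that expected from base composition was 0.281 and 0.837 for the outer and inner MFAP2 starts, 0.329 for AMBN and 0.282 for SLC12A3. Taking the first listed start of each gene, the median was 0.856 over the 9094 matched rows that could have passed and 0.58 over all 27305 RefSeq promoters. On either strand, the letters TATAAA were found at SLC12A3, where 4.83% of the matched rows and 11.95% of all promoters hold them. GGGCGG was found at SLC12A3, AMBN and the inner MFAP2 start, and in 72.81% of the matched rows and 44.59% of all promoters. A consensus core of the CTCF motif was at none of these starts, and in 0.63% of the matched rows and 0.53% of all promoters. Which start these cells use was not measured. Of the 65 members only 48 (73.8%) had a promoter in the RefSeq table, so a comparison of all members' promoters was void and is not given.

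The switches of clone 3.3 were next read in clone 1.14 and its controls, samples that had no part in choosing them. Between control A and clone 3.3, 7 members were off and 1 was on in the clone. The 7 were the 4 above with LRRN3, OLFML3 and POF1B, and the 1 on was CPPED1. Against control B, all 7 fell in clone 1.14 and CPPED1 rose (edgeR, adjusted p under 0.05), where 11.4% of the 12636 rows tested fell and 8.7% rose. In log2 units AMBN fell by 7.37 (SE 0.18, adjusted p = 1.83e-06), SLC12A3 fell by 6.09 (SE 0.27, adjusted p = 1.61e-05), MFAP2 fell by 5.97 (SE 0.35, adjusted p = 4.74e-05) and IRF8 fell by 4.15 (SE 0.19, adjusted p = 1.86e-05). POF1B fell by 3.69 (SE 0.51, adjusted p = 0.00259) and OLFML3 fell by 3.21 (SE 0.32, adjusted p = 0.000534).

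LRRN3, a leucine-rich repeat membrane protein of neurons, was at 8.76, 8.84 and 9.47 CPM in control A and at 0.483, 0.633 and 0.334 in clone 3.3. It was at 6.87, 3.96 and 7.39 CPM in control B and at 0.429, 0.839 and 0.246 in clone 1.14, where it fell by 3.59 on the log2 scale (SE 0.40, adjusted p = 0.000881, edgeR). The mean of clone 1.14 was 0.505 CPM, just above the limit of the rule, which is why LRRN3 is not counted with the members off in both clones. POF1B, an actin-binding protein, was at 8.88, 8.30 and 10.8 CPM in control A, at 0.483, 0.352 and 0.401 in clone 3.3, at 3.23, 2.59 and 6.09 in control B and at 0.161, 0.360 and 0.430 in clone 1.14. OLFML3, a secreted olfactomedin-domain protein, was at 6.45, 5.41 and 3.65 CPM in control A, at 3.37, 3.27 and 4.12 in control B, and at or below 0.536 CPM in every knockout sample. For both genes the clones did not overlap with their controls. CPPED1, a phosphatase, went the other way: it was at 0.256, 0.301 and 0.176 CPM in control A, at 6.42, 5.0 and 6.02 in clone 3.3, at 0.618, 0.477 and 0.451 in control B and at 7.56, 7.55 and 6.89 in clone 1.14. Its rise in clone 1.14 was 3.81 on the log2 scale (SE 0.15, adjusted p = 1.17e-05, edgeR).

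In the opposite reading, 21 members switched between control B and clone 1.14, 18 of them off and 3 on, and these were read in clone 3.3 against control A. Of the 18, 16 fell, 1 rose and 1 was not called, and all 3 rose. Among the 12489 rows tested there, 3.9% fell and 4.17% rose. The 4 members off in both clones are in both readings, so the 2 readings are not separate lists. LAMC3, a laminin chain of basement membranes, was at 8.70 ± 0.483 CPM in control B and 0.363 ± 0.118 in clone 1.14 (SD, n = 3). In set A it was at 3.81 ± 0.742 CPM in control A and 1.61 ± 0.199 in clone 3.3. It fell there by 1.29 on the log2 scale (SE 0.23, adjusted p = 0.00180, edgeR). In the double knockout LAMC3 was above control A without overlap, at 6.14 ± 0.610 CPM.

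**Figure D3:**
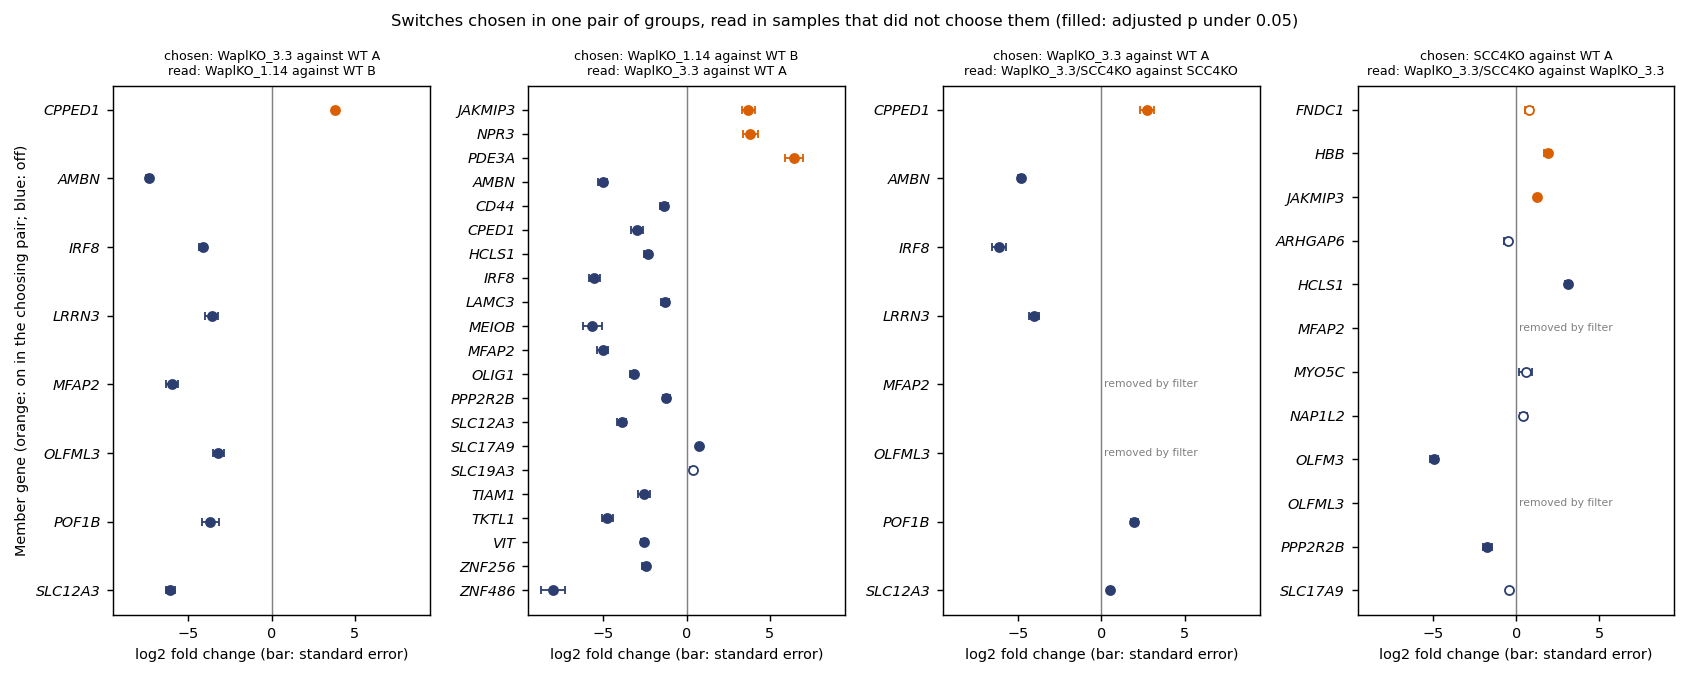
Points give the log2 fold change (horizontal axis) with its standard error for each member (vertical axis) in 4 comparisons of samples that did not choose it, named above each panel, with filled points at an edgeR adjusted p under 0.05. In the first panel all 7 blue points (off) lie left of 0 and the orange point (on) lies right. In the other panels SLC17A9, POF1B, SLC12A3 and HCLS1 are filled blue points right of 0.

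Between control B and clone 1.14, 14 members switched off that did not switch between control A and clone 3.3. Of these 14, *ΔSCC4* was also below 0.5 CPM in 6 and the double knockout in 3. In 8 of the 14 the mean of control A was itself below 5 CPM, so that clone 3.3 could not have met the rule against its own controls. Clone 3.3 was below 0.5 CPM in 5 of the 14 (CPED1, MEIOB, TIAM1, TKTL1 and ZNF486). TKTL1, a transketolase-like protein, was at 12.5, 14.5 and 11.1 CPM in control B and had 0 reads in all 3 samples of clone 1.14. In set A it was at 4.54, 3.73 and 3.41 CPM in control A, at 0.0966, 0.141 and 0.201 in clone 3.3, at 0.581, 0.799 and 0.775 in *ΔSCC4* and at 0.230, 0.124 and 0.341 in the double knockout. It fell by 4.75 on the log2 scale in clone 3.3 (SE 0.35, adjusted p = 4.37e-07, edgeR), and no knockout sample reached a control sample. MEIOB, which acts in meiotic recombination, had at most 2 reads in any sample of either clone or of the double knockout, and was at 2.34 ± 0.499 CPM in control A, 2.25 ± 0.245 in *ΔSCC4* and 6.54 ± 0.527 in control B (SD, n = 3).

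SLC17A9, the vesicular nucleotide transporter, was the member of the 18 that rose. It was at 15.2, 14.6 and 16 CPM in control B and at 0.0536, 0.0599 and 0 in clone 1.14, which is 1, 1 and 0 reads. In set A it was at 16.9, 15.8 and 15.6 CPM in control A and at 25.2, 26.5 and 33.0 in clone 3.3, a rise of 0.78 on the log2 scale (SE 0.16, adjusted p = 0.00473, edgeR). *ΔSCC4* held 0.129, 0.200 and 0.0705 CPM and the double knockout 21.7, 19.3 and 23.3. The gene was thus near 0 in clone 1.14 and in *ΔSCC4*, and high in both lines that descend from clone 3.3. SLC19A3, a thiamine transporter, was at 4.91 ± 0.194 CPM in control A and 6.47 ± 0.520 in clone 3.3, but at 6.28 ± 0.620 in control B and 0.429 ± 0.0588 in clone 1.14 (SD, n = 3). Its change in clone 3.3 did not pass the test (0.36, SE 0.17, adjusted p = 0.289, edgeR).

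CD44, the hyaluronan receptor of the cell surface, was at means from 0 to 14.2 CPM over the groups. It was at 10.2, 9.48 and 9.48 CPM in control B with 0 reads in all 3 samples of clone 1.14. It was at 2.88, 2.89 and 4.06 CPM in control A, at 1.5, 1.20 and 1.20 in clone 3.3, at 0.129, 0 and 0.0705 in *ΔSCC4* and at 14.5, 13.5 and 14.5 in the double knockout. It fell by 1.34 on the log2 scale in clone 3.3 (SE 0.24, adjusted p = 0.00147, edgeR). VIT, an extracellular matrix protein, was at 5.91, 6.07 and 5.70 CPM in control B and at 0.107, 0.0599 and 0.184 in clone 1.14, and at 8.12, 8.06 and 8.11 in control A and 1.59, 1.20 and 1.34 in clone 3.3. It fell by 2.56 in clone 3.3 (SE 0.20, adjusted p = 7.04e-07, edgeR), and *ΔSCC4* was above the controls at 17.5, 16.4 and 18.6 CPM. The double knockout, which also lacks WAPL, was at 8.01, 8.51 and 8.02 CPM and overlapped with control A.

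OLIG1, a transcription factor of oligodendrocytes, was at 7.17 ± 0.890 CPM in control A and at means of 0.423 to 1.15 CPM in the 4 knockouts. HCLS1, an actin regulator of blood cells, was at 5.2 ± 0.357 CPM in control A, 1.07 ± 0.230 in clone 3.3, 0.145 ± 0.0470 in *ΔSCC4* and 9.35 ± 0.475 in the double knockout (SD, n = 3). TIAM1, an activator of the GTPase Rac, was at 1.75 ± 0.152 CPM in control A and 0.287 ± 0.129 in clone 3.3, and fell there by 2.55 (SE 0.35, adjusted p = 0.000153, edgeR). In the double knockout TIAM1 was above control A without overlap, at 3.80 ± 0.809 CPM. ZNF486, a zinc finger gene, had 0 reads in all 3 samples of clone 3.3 and 1.41, 2.23 and 2.12 CPM in control A. Zinc finger genes have near relatives, and reads that aligned to several places were not counted, so their levels are less certain.

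The 3 members switched on in clone 1.14 were JAKMIP3, NPR3 and PDE3A, and each was between the limits in clone 3.3. PDE3A, a phosphodiesterase that degrades cyclic AMP, was at 0.206, 0 and 0.113 CPM in control B and at 5.15, 5.45 and 4.55 in clone 1.14. It was at 0, 0 and 0.0588 CPM in control A and at 2.32, 2.67 and 2.47 in clone 3.3, a rise of 6.45 on the log2 scale (SE 0.53, adjusted p = 1.14e-06, edgeR), while *ΔSCC4* and the double knockout stayed at or below 0.129 CPM. NPR3, the clearance receptor of natriuretic peptides, was at 0.101 ± 0.0318 CPM in control A and 1.54 ± 0.340 in clone 3.3 and rose by 3.83 (SE 0.44, adjusted p = 3.10e-05, edgeR), with 0.360 ± 0.0759 in control B and 6.5 ± 0.931 in clone 1.14 (SD, n = 3). JAKMIP3, which binds Janus kinases and microtubules, was at 0.181 ± 0.0982 CPM in control A and 2.52 ± 0.376 in clone 3.3 and rose by 3.72 (SE 0.36, adjusted p = 6.18e-06, edgeR). It was at 7.60 ± 1.58 CPM in *ΔSCC4*, 6.34 ± 0.398 in the double knockout and 6.75 ± 0.772 in clone 1.14.

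Over all members, 25 lay below the controls of their set in both clones without overlap and 16 lay above, where 5.72% and 6.11% of the rows that could have passed did so. In 8 members the clones lay on opposite sides of their controls, where 1.43% of rows did. Nothing is read from these shares, since the same comparisons chose the members. The 8 were ASTN1, DTNA, FZD10, LGALS8, PAK6, SLC17A9, SLC19A3 and ZNF329. FZD10, a receptor for Wnt ligands, was at 0.895, 1.20 and 0.706 CPM in control A and at 9.22, 10.7 and 9.76 in clone 3.3, whereas it was at 1.30, 1.43 and 1.13 in control B with 0 reads in all 3 samples of clone 1.14. LGALS8, a galectin, was at 12.7, 15.6 and 19.2 CPM in control A and at 0.869, 1.20 and 0.669 in clone 3.3, but at 18.4, 14.7 and 20.7 in control B and at 24.4, 21.3 and 26.2 in clone 1.14.

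**Figure D4:**
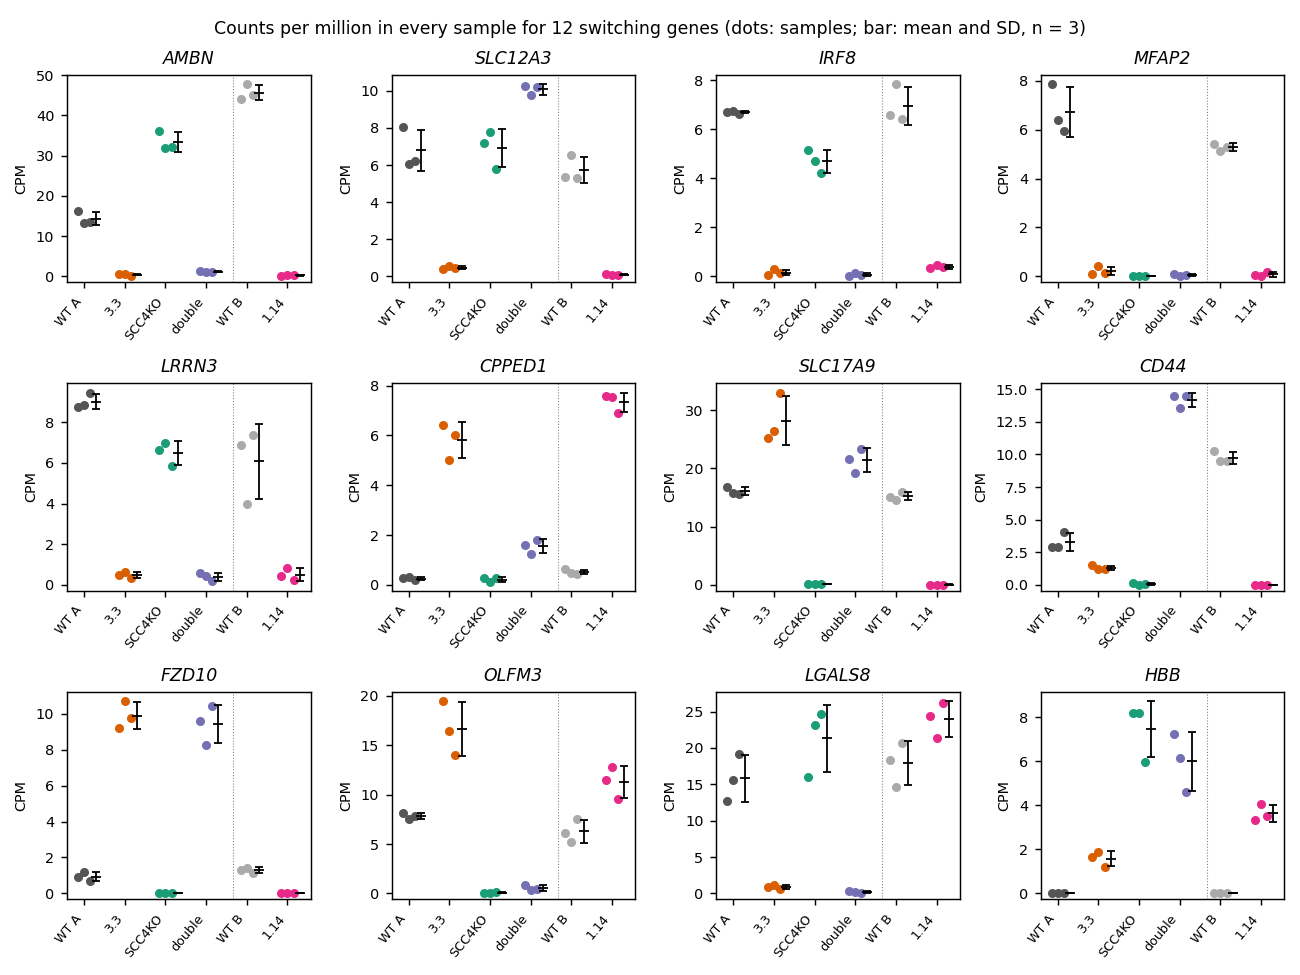
Dots give CPM (vertical axis, linear and from 0, with its own range in each panel) in each of the 18 samples for 12 members, and the bar beside them the mean and SD of 3. The dotted line parts set A from set B. AMBN, IRF8, MFAP2 and LRRN3 are near 0 in the 3 lines without WAPL, and MFAP2 is also at 0 in *ΔSCC4*. SLC17A9 is near 0 only in *ΔSCC4* and clone 1.14, and HBB is at 0 in all 6 controls.

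Between control A and *ΔSCC4* 12 members switched, 9 off and 3 on in the knockout. MFAP2, OLFML3, HCLS1, PPP2R2B, SLC17A9, OLFM3, MYO5C, NAP1L2 and ARHGAP6 were off and HBB, FNDC1 and JAKMIP3 were on. OLFM3, an olfactomedin-domain protein, was at 8.12, 7.58 and 7.82 CPM in control A and had 1, 0 and 2 reads in *ΔSCC4*. It was at 19.5, 16.5 and 14 CPM in clone 3.3, at 0.864, 0.373 and 0.398 in the double knockout, at 6.11, 5.25 and 7.56 in control B and at 11.5, 12.8 and 9.53 in clone 1.14. Both lines without SCC4 were low, and both *ΔWAPL* clones were above their controls.

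MYO5C, a class V myosin motor, was at 7.73, 13.1 and 17.5 CPM in control A, at 0.258, 0.300 and 0.846 in *ΔSCC4*, at 0.338, 0.563 and 0.869 in clone 3.3 and at 1.15, 0.746 and 0.682 in the double knockout. Clone 1.14, at 18.3, 17.0 and 17.3 CPM, was not low, and overlapped with control B at 16.5, 14 and 17.4. NAP1L2, a nucleosome assembly protein of neurons, was at 5.10 ± 0.836 CPM in control A and 0.390 ± 0.269 in *ΔSCC4*, with 8.25 ± 1.88 in the double knockout (SD, n = 3). ARHGAP6, a GTPase-activating protein, was at 5.29 ± 0.878 CPM in control A, 0.329 ± 0.152 in *ΔSCC4* and 2.92 ± 0.762 in the double knockout.

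HBB, the beta chain of adult haemoglobin (ENSG00000244734, chr11:5246694-5250625, minus strand), had 0 reads in all 6 control samples and was read in every knockout sample. It had 34, 27 and 18 reads in clone 3.3, 127, 82 and 85 in *ΔSCC4*, 126, 99 and 81 in the double knockout and 62, 68 and 57 in clone 1.14. In CPM these were 1.58 ± 0.352, 7.46 ± 1.27, 6.0 ± 1.33 and 3.64 ± 0.391 (SD, n = 3), so the knockouts lay apart from the controls and the lines without SCC4 lay above both *ΔWAPL* clones. The neighbouring beta-like genes HBD, HBE1 and HBG1, looked up after this was seen, had 0 reads in all 18 samples, and HBG2 had at most 2 reads in any sample. HBA1 of the alpha cluster was at means of 0.605 to 0.914 CPM in all groups. The knockout lines, unlike the controls, were made by inserting a cassette. For HBB, the insertion and the loss of WAPL or SCC4 cannot be told apart. FNDC1, which carries fibronectin domains, was at 0.256, 0.541 and 0.529 CPM in control A and at 4.32, 5.50 and 5.57 in *ΔSCC4*. The other knockouts also lay above their controls without overlap. FNDC1 was at 2.03 ± 0.774 CPM in clone 3.3 and 3.42 ± 0.222 in the double knockout. In set B it was at 3.18 ± 0.175 CPM in clone 1.14 and 1.46 ± 0.192 in control B, which lay above control A.

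These 12 switches were read in the double knockout against clone 3.3, where SCC4 was lost from cells that already lacked WAPL. Of the 9 off, 2 fell, 1 rose, 4 were not called and 2 were removed by the filter on low counts. Of the 3 on, 2 rose and 1 was not called. Among the 12544 rows tested, 4.55% fell and 6.05% rose. OLFM3 fell by 4.94 on the log2 scale (SE 0.25, adjusted p = 1.66e-09) and PPP2R2B, a regulatory subunit of protein phosphatase 2A, fell by 1.74 (SE 0.27, adjusted p = 0.000294, edgeR). PPP2R2B had 0 reads in all 3 *ΔSCC4* samples and was at 0.903 ± 0.265 CPM in the double knockout, 2.91 ± 0.60 in clone 3.3 and 6.69 ± 0.729 in control A (SD, n = 3). HBB rose by 1.89 (SE 0.22, adjusted p = 2.12e-05) and JAKMIP3 by 1.28 (SE 0.17, adjusted p = 8.84e-05, edgeR). HCLS1 rose by 3.12 (SE 0.19, adjusted p = 1.58e-08, edgeR), against its direction in *ΔSCC4*.

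The 4 members off in *ΔSCC4* that were not called, ARHGAP6, MYO5C, NAP1L2 and SLC17A9, changed by -0.50 (SE 0.20), 0.57 (SE 0.38), 0.43 (SE 0.20) and -0.42 (SE 0.14) on the log2 scale. MYO5C was already at a mean of 0.59 CPM in clone 3.3, so it had little room to fall. SLC17A9 missed the threshold narrowly (adjusted p = 0.0613, edgeR), as did FNDC1 (0.77, SE 0.24, adjusted p = 0.0520, edgeR). The removed members were MFAP2 and OLFML3, which were also off in clone 3.3.

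The switches of clone 3.3 were likewise read in the double knockout against *ΔSCC4*, where the groups differ in WAPL and both lack SCC4. Of the 7 off, 3 fell, 2 rose and 2 were removed by the filter, and CPPED1 rose. In this comparison 13.6% of 12604 rows fell and 13.7% rose. IRF8 fell by 6.15 on the log2 scale (SE 0.41, adjusted p = 7.46e-09), AMBN fell by 4.81 (SE 0.18, adjusted p = 5.56e-12) and LRRN3 fell by 4.04 (SE 0.28, adjusted p = 1.51e-08, edgeR). LRRN3 was at 6.65, 6.99 and 5.85 CPM in *ΔSCC4* and at 0.576, 0.435 and 0.171 in the double knockout. POF1B rose by 1.98 (SE 0.21, adjusted p = 2.08e-06) and SLC12A3 by 0.53 (SE 0.16, adjusted p = 0.0216, edgeR). CPPED1 rose by 2.73 (SE 0.40, adjusted p = 8.10e-05, edgeR), to 1.56 ± 0.292 CPM, below the 5.81 ± 0.735 of clone 3.3 (SD, n = 3). The double knockout descends from cells lacking WAPL, so a level inherited from that line and an effect of the genotype cannot be told apart.

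Against control A, 13 members switched in the double knockout, 9 off and 4 on. Those off here that were not off in clone 3.3 or in *ΔSCC4* were CNRIP1, CROT, INPP1, LGALS8 and ZNF329. CROT, a carnitine acyltransferase of peroxisomes, was at 4.15, 6.80 and 7.58 CPM in control A, at 6.33, 3.87 and 3.94 in clone 3.3, at 6.45, 6.5 and 11.6 in *ΔSCC4* and at 0.115, 0.248 and 0.114 in the double knockout. Clone 3.3 and *ΔSCC4* overlapped with control A, and the double knockout was below all of them. CNRIP1, which binds the cannabinoid receptor, was at 6.52, 6.37 and 5.35 CPM in control A, 4.06, 4.08 and 4.21 in clone 3.3, 10.1, 9.69 and 10.1 in *ΔSCC4* and 0.403, 0.559 and 0.455 in the double knockout. Its samples in clone 1.14, at 4.67, 4.97 and 5.10 CPM, overlapped with control B at 6.32, 5.87 and 4.34.

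LGALS8 and ZNF329 were already low in clone 3.3. ZNF329 was at 7.54, 8.0 and 6.35 CPM in control A, at 0.966, 1.27 and 1.07 in clone 3.3, at 0.346, 0.621 and 0.171 in the double knockout and at 10.8, 12.3 and 11.9 in *ΔSCC4*. INPP1, an inositol phosphatase, was at 6.45 ± 1.34 CPM in control A, 3.18 ± 0.379 in clone 3.3, 2.16 ± 0.148 in *ΔSCC4* and 0.276 ± 0.141 in the double knockout (SD, n = 3). In set B, clone 1.14 at 5.97 ± 0.394 CPM overlapped with control B at 6.02 ± 0.220. The members on only here were MAL2 and MCTP2. MAL2, a membrane protein of polarised transport, was at 0.575, 0.481 and 0.0588 CPM in control A and 6.74, 10.0 and 7.22 in the double knockout. MCTP2, a membrane protein with C2 domains, was at 0.128, 0.120 and 0.470 CPM in control A and 4.49, 5.41 and 5.80 in the double knockout, and at means of 0.239 to 0.535 CPM in the other 4 groups.

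Between *ΔSCC4* and the double knockout 17 members switched, 10 on and 7 off in the double knockout, against 4 on and 0 off between clone 3.3 and the double knockout. The 10 were CD44, FZD10, HCLS1, MCTP2, MT1M, NAP1L2, SLC17A9, SLCO4C1, THBS1 and TRANK1, and the 7 were CNRIP1, CROT, LGALS8, LRRN3, MGAT4C, PAK6 and ZNF329. FZD10 had 0 reads in all 3 *ΔSCC4* samples and was at 9.62, 8.26 and 10.4 CPM in the double knockout, a level like that of clone 3.3. SLCO4C1, an organic anion transporter, was at 0.194, 0.400 and 0.493 CPM in *ΔSCC4*, at 5.70, 6.71 and 4.38 in the double knockout and at 5.21, 4.36 and 3.48 in clone 3.3. For both genes *ΔSCC4* lay below every sample of the double knockout and of clone 3.3.

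MT1M, a metallothionein, had 0 reads in all 3 *ΔSCC4* samples and was at 4.69 ± 1.15 CPM in control A, 4.18 ± 0.690 in clone 3.3 and 6.05 ± 1.68 in the double knockout (SD, n = 3). Metallothionein genes are near-identical copies, and the split of reads between them is uncertain. PAK6, a p21-activated kinase, was at 8.45, 6.20 and 6.06 CPM in *ΔSCC4*, at 0.346, 0.248 and 0.171 in the double knockout, at 0.338, 0.422 and 0.334 in clone 3.3 and at 8.74, 8.63 and 6.83 in clone 1.14. MGAT4C, a glycosyltransferase of the Golgi, was at 7.42, 8.59 and 7.68 CPM in *ΔSCC4* and at 4.83, 4.64 and 5.48 in clone 3.3, and at 0.346, 0.248 and 0.455 in the double knockout. PAK6 was thus below 0.5 CPM in the double knockout and in clone 3.3, and MGAT4C in the double knockout alone. Over all members, 16 differed in opposite directions without overlap in *ΔSCC4* against control A and in the double knockout against clone 3.3. Of the rows that could have passed, 5.04% did so. The rule used these groups, and nothing is read from that share.

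In the last 19 members no knockout switched against its own controls and the double knockout did not switch against a single one, so the limits were met between other pairs of groups. In 15 of them, all but 4, every such pair joined a group of set A to clone 1.14 or control B, and the difference between the sets and that between the lines cannot be told apart there. Clone 1.14 was off in 9 of the 19 and on in 10, so it was past one of the limits in all 19. CHRM3, the M3 muscarinic receptor, was at 17.6, 16.6 and 16 CPM in clone 1.14 and at 11.1, 12.4 and 8.96 in clone 3.3, with 1.79, 2.59 and 3.53 in control A, 3.09, 2.93 and 3.50 in control B, 1.90, 2.11 and 1.76 in the double knockout and 0, 0 and 0.0705 in *ΔSCC4*. Both *ΔWAPL* clones were above all other samples, and *ΔSCC4* was below them. CHST15, a sulfotransferase of chondroitin chains, was at 16.6, 14.5 and 18.3 CPM in the double knockout and at 0.268, 0.419 and 0.615 in clone 1.14, with the controls between them at 1.71 to 5.25 CPM. PCDH7, a protocadherin of cell adhesion, was at 10.1 ± 1.61 CPM in clone 3.3 and 11.8 ± 0.641 in clone 1.14, and at 0.885 ± 0.519 in control A, 1.59 ± 0.197 in control B, 0.944 ± 0.178 in the double knockout and 0.170 ± 0.0978 in *ΔSCC4* (SD, n = 3).

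CHRM3, OLFM3, PCDH7 and CPPED1 were on in both clones, and all of them were below 0.5 CPM in *ΔSCC4*, as CPPED1 was in control A. GDF3, a secreted protein of the transforming growth factor family, was on only in *ΔSCC4*, at 7.03, 6.59 and 6.77 CPM, where all other samples were at or below 1.34. IFI16, a sensor of DNA, was at 0.116 ± 0.0554 CPM in the double knockout, 1.11 ± 0.319 in clone 3.3, 0.699 ± 0.345 in *ΔSCC4* and 4.17 ± 0.580 in control A. In set B, clone 1.14 at 6.20 ± 0.774 CPM overlapped with control B at 6.44 ± 2.33. STXBP2, which binds syntaxins in secretion, was at 11.3 ± 0.476 CPM in the double knockout and 0.374 ± 0.201 in clone 1.14.

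Of lists of gene families written with earlier results of these data known, 23 members of 65 fell in one, against 1231 of the 11105 rows that could have passed. Cadherins and protocadherins gave 3 of 24 rows (FAT3, PCDH11X and PCDH7, 12.5%), all of them highest in clone 1.14. Solute carriers, which move small molecules across membranes, gave 4 of 206 (SLC12A3, SLC17A9, SLC19A3 and SLCO4C1, 1.94%). Matrix proteins and proteases gave 3 of 70 (HMCN1, LAMC3 and THBS1, 4.29%), interferon and antigen presentation genes 2 of 33 (IFI16 and IRF8, 6.06%), and zinc finger genes 3 of 382 (ZNF256, ZNF329 and ZNF486, 0.79%). Axon guidance genes gave 0 of 51, intermediate filament genes 0 of 9, S100 proteins and annexins 0 of 13, and oxidoreductases 0 of 45. Genes that the rule left out by name belong in part to such families, and 0.585% is the share over all rows that could have passed.

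The members' span on GRCh37 had a median of 60.06 kb, against 36.27 kb for the 11013 placed rows that could have passed, and 7 of 65 (10.77%) were 500 kb or longer against 1.44%. These were ARHGAP6, CADPS2, CHRM3, FAT3, MGAT4C, PCDH11X and PPP2R2B. CPM is not corrected for length, and the part of length in the choice of members was not tested. Chromosome 1 held 9 members (13.8%, against 10.0% of rows that could have passed), chromosome 16 held 6 (9.2% against 4.6%), chromosome 2 held 5 (7.7% against 6.7%) and chromosome X held 5 (7.7% against 3.7%). No members lay within 100 kb of each other and 5 pairs lay within 1 Mb. ZNF256 and ZNF329 on chromosome 19 were 178.5 kb apart, with ZNF256 below its controls in both clones and ZNF329 only in clone 3.3. MT1M and SLC12A3 on chromosome 16 were 231.2 kb apart and were lowest in different groups.

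Members near the limits show how sharp the choice was. CNRIP1, MYO5C and FAT3 were the last inside the lower limit, with lowest means of 0.472, 0.468 and 0.462 CPM, and FGF12 and SETBP1 were among the first outside, with 0.501 and 0.527 CPM. PDE3A, FNDC1 and OLFML3 were the last inside the upper limit, with highest means of 5.05, 5.13 and 5.17 CPM. UBE2QL1, OAS2 and HHLA2 were the first outside, with 4.98, 4.97 and 4.96 CPM.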

How the data were processed

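Polyadenylated RNA of 18 samples was made into strand-specific libraries. The authors deposited raw HTSeq counts per gene, without normalization. The submitters' processing notes name TopHat2 2.0.9, hg19 and DESeq2 1.10.1, and the version of the aligner given in the study's methods differs. The 5 HTSeq summary rows (20.3% to 22.6% of reads) were left out of totals, and reads aligned to several places (14.3% to 16.06%) were not counted by the authors. Of 20329 gene rows, 96.6% were matched to a symbol, and positions came from GENCODE release 44 on GRCh37.

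The members, gene lists and tests were chosen with earlier results of these data known. CPM used the sum of gene rows. Comparisons used edgeR 4.0.16 (R 4.3.3), TMM, filterByExpr, the quasi-likelihood test and Benjamini-Hochberg adjustment over all rows tested, with a threshold of 0.05 and only the 2 groups compared. A standard error is the size of the log2 fold change divided by the root of its F value. By rule, named genes are the 4 members with the highest group mean in each class and direction against controls, 2 in the other classes, and 3 on each side of each limit. Further members and the globin genes were named after their values were seen. Of 18 pairs of replicates, 0 were identical, and all differed by more than sampling noise. Alternatives were TMM-scaled CPM, other limits, medians, DESeq2 1.42.0, its size factors, no filter, all 18 samples in one fit, a replicate block and leaving out each sample. Some items withheld for evaluation are not reported here.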

Additional observations from a re-analysis of the deposited data

Results flagged for a closer look

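Named members differed in opposite directions, without overlap between samples, in different lines with the same loss. The differences were not tested, and the comparisons had also chosen the members. The values are the change in mean CPM in the second setting less that in the first.

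For loss of WAPL in clone 1.14 less that in clone 3.3, LGALS8 gave 20.98, as it was lower in clone 3.3 and higher in clone 1.14. ZNF329 gave 10.01 and PAK6 8.07, both with the same order. SLC17A9 gave -27.3 and FZD10 -10.2, both higher in clone 3.3 and lower in clone 1.14.

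For loss of SCC4 in cells without WAPL less that in cells with WAPL, CD44 gave 16.1, POF1B 13.4 and OLFML3 5.37, all lower when SCC4 was lost alone and higher when it was lost in cells lacking WAPL. OLFML3 stayed below 0.5 CPM in both groups without WAPL. MGAT4C gave -7.86, CNRIP1 -7.51, ZNF329 -5.11 and NPR3 -1.97, all higher when SCC4 was lost alone and lower when it was lost in cells lacking WAPL.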

How the results depend on the processing

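The number of members depended mainly on the limits. It was 65 with CPM scaled by TMM, 69 with group medians, 11 with limits of 0.25 and 10 CPM, 115 with limits of 1 and 5 CPM, and 42 when every sample of a group had to pass. With the class of each member also required to be kept, the counts were 6 with limits of 0.25 and 10 CPM and 33 with every sample passing. Leaving out 1 sample at a time gave 62 to 68 members, 61 to 65 of them in their class, and 51 of the 65 were kept in all 18 such settings.

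The counts of switches read in other samples kept their direction and stayed within 1.5 times in all 17 alternatives each. Leaving out 1 sample gave 7 to 8 of 7 to 8 chosen for switches of clone 3.3 read in clone 1.14. It gave 19 to 20 of 21 to 23 chosen for the opposite reading. For switches of clone 3.3 read in the double knockout it gave 3 to 4 of 7 to 8. For those of *ΔSCC4* it gave 4 to 5 of 10 to 14. The last count was 5 without a filter and 6 with one fit over all 18 samples. Deviations of same-numbered samples correlated at 0.066 to 0.364 in clone 1.14 against control B, and those of different numbers at -0.375 to 0.18. Pairing was thus not settled there, and a replicate block called 3030 rows against 2536 without it. Same-numbered samples correlated at -0.565 to -0.007 in clone 3.3 against control A. They correlated at -0.49 to 0.31 in the double knockout against *ΔSCC4* and at -0.388 to 0.404 against clone 3.3. A replicate block gave 8, 19, 4 and 6 in the same order.

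Over all rows tested, the number called was less stable. Clone 1.14 against control B gave 2536, but 1523 without control B replicate 1, 4820 without control B replicate 3, 1415 without clone 1.14 replicate 1 and 1473 without its replicate 3. Clone 3.3 against control A gave 1008, and 1753 in one fit over all 18 samples. The double knockout gave 3447 against *ΔSCC4*, with 2080 without *ΔSCC4* replicate 2 and 2244 without double knockout replicate 1, and 1330 against clone 3.3, with 861 without clone 3.3 replicate 2. The causes were not tested. At these totals a count of 0 allows up to 0.145 to 0.300 CPM, so lower levels cannot be told from 0.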
